A study of Danio rerio with 6 samples.

Results

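The complement genes examined here were the C3 family of zebrafish (c3a.1 to c3a.6, c3b.1 and c3b.2) with c5 and c9, 10 genes in all, of which 5 could be measured. The genes were chosen by symbol, as the members of the C3 family with c5 and c9 of the later steps, with earlier results of these arrays in view. For a gene with several transcript clusters (the groups of probes that the array sums into 1 value), the cluster would be selected on its highest mean over the 6 arrays. This choice never arose, since c3a.1, c3a.2, c3a.3, c5 and c9 each had 1 cluster that carried their symbol alone. The genes c3b.1 and c3b.2 share a single cluster, which cannot be given to either gene, and c3a.4, c3a.5 and c3a.6 had no cluster under their own symbols, so no values are given for these 5. The arrays held 75212 transcript clusters, and 19260 genes could be read with 1 cluster each.

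Whole larvae of the line Tg (mbp:nfsB-egfp) were measured at 10 dpf (days post fertilization) on Affymetrix GeneChip Zebrafish Gene ST arrays, with 3 arrays for each group and the RNA of 5 pooled larvae on each array. Control larvae were kept in E3 medium with 0.2% DMSO, and metronidazole-treated larvae in 5 mM metronidazole with 0.2% DMSO for 5 days before collection. The methods place the treatment of larvae in the dark and give no lighting for the control larvae. A difference in light, if there was one, cannot be told apart from the drug. All larvae, the controls included, carried the transgene, in which the mbp promoter drives nitroreductase (nfsB) fused to EGFP, so that cells that make myelin basic protein turn metronidazole into a toxic product. Metronidazole-treated larvae without the transgene were not analysed here, so an effect of the drug on other tissues cannot be told apart from that on the targeted cells. The larvae came from 3 batches, and arrays with the same replicate number were read as 1 batch, which the labels do not state.

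Complement is a chain of plasma proteins that marks microbes and damaged cells for removal. All of its routes meet at C3, a large protein with a reactive thioester bond. Cleavage of C3 frees the small inflammatory peptide C3a and lets C3b bind to surfaces. C5 is cleaved in turn, which frees C5a and starts the terminal complex, and copies of C9 complete that complex as a pore in the target membrane. The liver makes most of these proteins, and bony fish carry several C3 genes where mammals have a single one. In the RefSeq gene table of assembly GRCz12tu the c3a genes lie close together on 1 chromosome, with a few other genes between them, in the order c3a.6, c3a.5, c3a.1, c3a.2 and c3a.3, while c3b.2 and c3b.1 adjoin each other on another chromosome. As paralogues of 1 family can share sequence, a cluster of probes may also read RNA of its relatives. The probe sequences were not analysed here, so each value belongs to the cluster that carries the gene's symbol.

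All 5 measured genes gave a negative log2 fold change (metronidazole minus control). Their median was -1.15, against 0.02 over all genes. Marker lists of other cell types, given below, had medians from -1.23 (enterocyte) to 0.13 (neutrophil). The differences were large for c3a.2 and c3a.3, intermediate for c9 and c5, and small for c3a.1. On each of the 3 arrays of metronidazole-treated larvae c3a.3, c5 and c9 lay below each control array, while c3a.1 and c3a.2 overlapped between the groups. None of the 5 passed limma's unpaired test across all transcript clusters (Benjamini-Hochberg adjusted p = 0.952 for each). The same test called 0% of the 75212 clusters at an adjusted p under 0.05, with 3604 at an unadjusted p under 0.05, and its lowest adjusted p was 0.444.

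**Figure D1:**
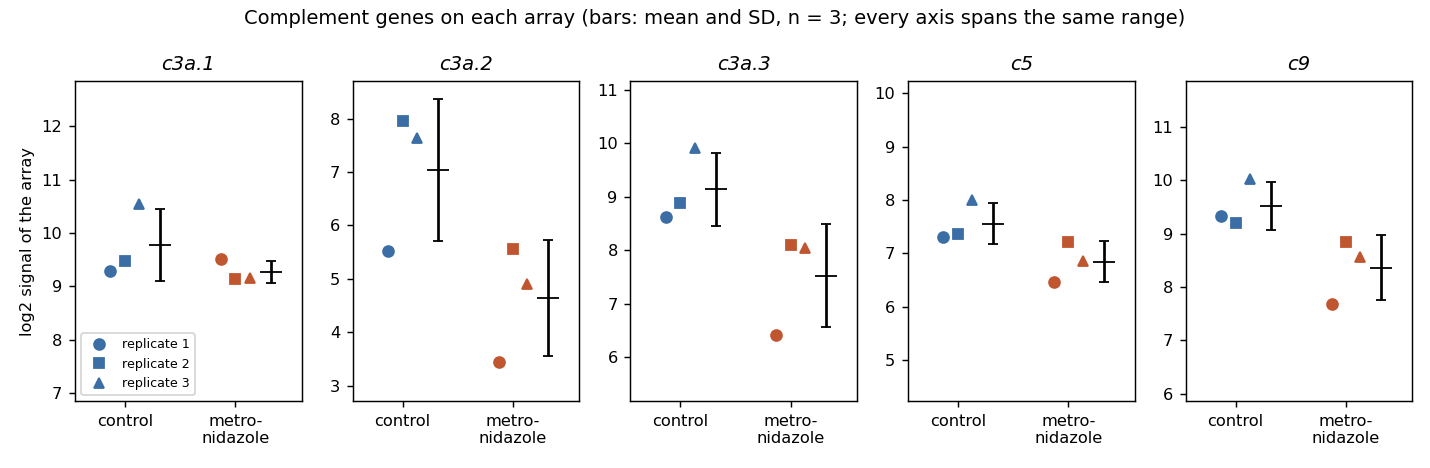
Log2 signal (vertical axis, 6 units in each panel) of the 5 measured complement genes on each array of control (blue) and metronidazole-treated larvae (orange), with the mean and SD of each group (n = 3) as bars. For c3a.3, c5 and c9 each orange point lies below each blue point, control 1 of c3a.2 at 5.52 lies level with metronidazole 2 at 5.57, and the groups of c3a.1 overlap.

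The gene c3a.2 (Entrez gene 30491), a C3 paralogue, had log2 signals of 5.52, 7.96 and 7.64 on control arrays 1, 2 and 3, and of 3.44, 5.57 and 4.91 on metronidazole arrays 1, 2 and 3. Control 1 was far below the other control arrays, and just below metronidazole 2, which was the only overlap of the groups. The means were 7.04 ± 1.33 for control and 4.64 ± 1.09 for metronidazole (SD, n = 3), which gives a log2 fold change of -2.40 (SE, the standard error from limma, 0.77, 95% interval -4.25 to -0.55), or 0.189 of the control level. Within replicates 1, 2 and 3 the differences were -2.07, -2.40 and -2.74, so the replicates gave like differences although their levels were far apart. After quantile normalization the groups of c3a.2 no longer overlapped. Its signals in metronidazole-treated larvae lay near or below the median of all clusters, which was between 5.10 and 5.14 on the 6 arrays. The background of the arrays is not known, so the fold of such a dim cluster is uncertain.

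The gene c3a.3 (Entrez gene 565074), another C3 paralogue, which follows c3a.2 on the chromosome, had log2 signals of 8.63, 8.88 and 9.92 on control arrays 1, 2 and 3. On metronidazole arrays 1, 2 and 3 they were 6.42, 8.10 and 8.05. The groups did not overlap, and metronidazole 1 was well below the other treated arrays. The means were 9.14 ± 0.69 and 7.52 ± 0.96 (SD, n = 3), and the log2 fold change was -1.62 (SE 0.54, 95% interval -2.90 to -0.33), or 0.326 of control, with differences of -2.21, -0.77 and -1.87 within the replicates. Without metronidazole 1 it was -1.06.

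The gene c3a.1 (Entrez gene 321046), the remaining measured C3 paralogue, had log2 signals of 9.29, 9.48 and 10.55 in control and 9.52, 9.14 and 9.15 in metronidazole-treated larvae, in the order of the replicates. Control 3 was high, and the other 5 arrays lay between 9.14 and 9.52. Metronidazole 1, the lowest of the treated arrays for the other 4 genes, was the highest of them for c3a.1. The means were 9.77 ± 0.68 and 9.27 ± 0.21 (SD, n = 3), and the log2 fold change was -0.50 (SE 0.34, 95% interval -1.31 to 0.30), or 0.706 of control, and the differences within the replicates were 0.23, -0.34 and -1.40, so that replicate 1 went the other way. Without control 3 it was -0.12, so most of this difference rests on that array.

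The gene c5 (Entrez gene 565774), whose protein starts the terminal complex, had log2 signals of 7.31, 7.36 and 7.99 in control and 6.46, 7.21 and 6.86 in metronidazole-treated larvae. The groups did not overlap, though metronidazole 2 lay close under control 1. The means were 7.55 ± 0.38 and 6.85 ± 0.38 (SD, n = 3), and the log2 fold change was -0.71 (SE 0.27, 95% interval -1.34 to -0.07), or 0.613 of control, with -0.85, -0.14 and -1.13 within the replicates.

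The gene c9 (Entrez gene 554141), which encodes the pore-forming component, had log2 signals of 9.33, 9.20 and 10.03 in control and 7.68, 8.85 and 8.56 in metronidazole-treated larvae. Again no array of one group reached into the other, and control 2 and metronidazole 2 were the closest. The means were 9.52 ± 0.45 and 8.36 ± 0.61 (SD, n = 3), and the log2 fold change was -1.15 (SE 0.36, 95% interval -2.002 to -0.31), or 0.449 of control, with -1.64, -0.35 and -1.47 within the replicates. Without metronidazole 1 it was -0.81.

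Set beside all genes, these counts read as follows. A negative difference was seen for 5 of 5 members and for 46.5% of all genes, a difference of at least 2-fold downwards for 3 of 5 and 2.02%, and a lower signal with no overlap for 3 of 5 and 5.73%. An unadjusted limma p under 0.05 with a lower signal was found for 4 of 5 and for 4.27% of all genes. By the methods' t-test without adjustment none of the 5 was under 0.05, and the exact permutation test of a single gene over 3 arrays against 3 cannot go below p = 0.1. The genes were picked with such results in view, so these shares describe them and are no test of the family. The arrays at the ends of the groups were also mostly shared: control 3 was the highest control array for c3a.1, c3a.3, c5 and c9, and metronidazole 1 the lowest treated array for c3a.2, c3a.3, c5 and c9.

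**Figure D2:**
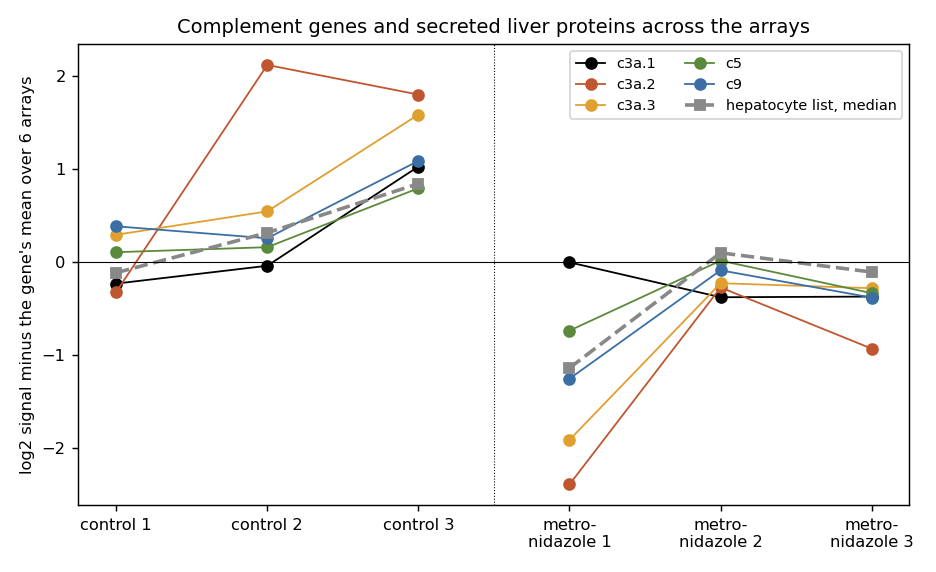
Log2 signal of each measured complement gene minus that gene's mean over the 6 arrays (vertical axis), for each array (horizontal axis). Thin lines join the points of 1 gene within a group and mark no order. The grey dashed line is the median of 19 genes for secreted liver proteins, treated the same way. Metronidazole 1 is the lowest array for c3a.2, c3a.3, c5, c9 and the liver list, while c3a.1 sits at its own mean there.

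Because the C3 paralogues are read on the same arrays, their log2 ratio on each array shows whether their signals moved by the same amount. All 10 pairs of the 5 genes were compared, after their values had been seen, by exact two-sided permutation tests with Benjamini-Hochberg adjustment over the pairs. The ratio of c3a.3 to c3a.1 was nearly constant in control, at -0.03, 0.03 and 0.00 relative to the control mean on the log2 scale (SD 0.03, n = 3). It was -2.47, -0.41 and -0.47 on metronidazole arrays 1, 2 and 3. Each treated array was thus below the whole control range, by a large amount on metronidazole 1 and a smaller one on the others. The mean difference of this ratio was -1.11 (exact p = 0.1, the smallest this design allows, and 0.286 after adjustment), and -0.44 without metronidazole 1.

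The ratio of c3a.2 to c3a.1 was -1.04, 1.21 and -0.17 relative to the control mean on the control arrays and -3.34, -0.85 and -1.51 on the metronidazole arrays. Here control 1 and metronidazole 2 overlapped, and the mean difference was -1.90 (exact permutation p = 0.2, adjusted p = 0.286). Within replicates 1, 2 and 3 this ratio differed by -2.30, -2.06 and -1.34, all in the same direction. The ratio of c5 to c3a.3 was higher by 0.91 in metronidazole-treated larvae with no overlap, and that of c9 to c5 lower by 0.45 with no overlap (exact permutation p = 0.1 for both, adjusted p = 0.286). In the other 7 pairs, c3a.2 with c3a.1 among them, the groups overlapped. Read within replicates, 8 of the 10 pairs had 1 sign in all 3 replicates, the exceptions being c5 with c3a.1 and c3a.3 with c3a.2. The pairs share genes, so they are not independent, and the share over pairs of all genes was not computed. These counts of pairs are a description only. The ratio of c5 to c3a.2, for example, differed by 1.23, 2.25 and 1.61. That of c9 to c3a.1 differed by -1.87, -0.01 and -0.08, and thus hardly outside replicate 1. With the replicates as a block, an exact paired permutation test, chosen after seeing the data, gave p = 0.25 for these 8, the smallest that 3 replicates allow (adjusted p = 0.312). No pair passed after adjustment in either test, and none could, since the smallest possible p was 0.1 unpaired and 0.25 paired. These tests therefore decide nothing about the pairs.

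**Figure D3:**
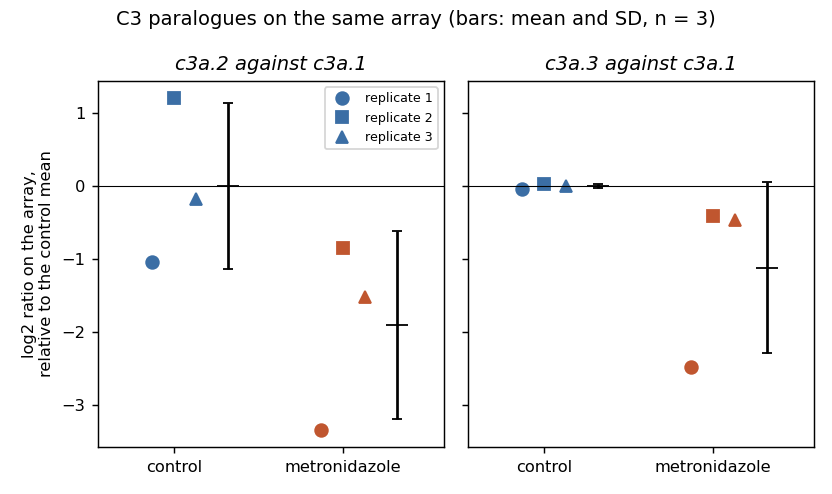
Log2 ratio of c3a.2 (left) and c3a.3 (right) to c3a.1 on the same array, relative to the mean of the control arrays (vertical axis), for control (blue) and metronidazole-treated larvae (orange), with mean and SD (n = 3) as bars. The control ratios of c3a.3 stay within 0.03 of their mean and its treated ratios lie at -0.41 or below.

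In whole larvae, fewer cells of a type and less RNA per cell cannot be told apart, and the liver is the main known source of these transcripts. Of 23 genes listed for proteins that hepatocytes secrete, 19 were measured, and 18 of these were negative, with a median log2 fold change of -0.77. Over all genes 46.5% were negative. In this list 4 genes were lower with no overlap of the groups, as were 5.73% of all genes. Of the defining hepatocyte markers, fabp10a, tfa and hpx are not analysed here, and the others were all above the median signal of all clusters. The log2 of the summed signal of the list was 13.20 to 14.26 on the control arrays and 12.24 to 13.43 on the metronidazole arrays, which overlapped. The median of the list, each gene centred on its own mean, was -0.12, 0.32 and 0.84 on control arrays 1, 2 and 3 and -1.14, 0.10 and -0.11 on the metronidazole arrays. Control 3 was thus the highest and metronidazole 1 the lowest array here as well, and the median of the list was -0.37 without metronidazole 1. The part of these values in the results for the complement genes was not tested.

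The secreted liver proteins were uneven among themselves. The genes with the lowest unadjusted p were itih2, a chain of the inter-alpha-trypsin inhibitor (-0.90, SE 0.31), f2, which encodes prothrombin (-0.77, SE 0.30), serpinc1, which encodes antithrombin (-0.49, SE 0.19), and the fetuin gene ahsg1 (-1.63, SE 0.71). The fibrinogen chains, named after their values were seen, had log2 fold changes of 0.02 (fga), -0.02 (fgb) and -0.19 (fgg). For these, as for c3a.1, metronidazole 1 was not the lowest treated array, as it was for most of the list. On metronidazole arrays 1, 2 and 3, fga read 8.79, 8.70 and 8.71, and fgg 8.97, 9.22 and 8.91. The limma adjusted p of these 7 genes ranged from 0.952 to 0.997, and 0 of the 19 passed. By size, the lowest values of the list were ahsg2 at -2.11 (SE 1.06) and gc at -1.71 (SE 0.82), both with overlapping groups. With ahsg1, they fell further than c3a.3 (-1.62), though not further than c3a.2 (-2.40).

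Each complement gene was also taken relative to the array median of the liver list, an alternative chosen after seeing the data. The difference of c3a.2 was then -1.67 on the log2 scale and that of c3a.3 -0.89, with no overlap of the groups for either. For c9 it was -0.42, also with no overlap (exact permutation p = 0.1 for each of the 3, the smallest possible). The share of all genes with no overlap on this scale was not computed, so these values are a description only. In contrast, c5 was at 0.025 and c3a.1 at 0.23, with overlapping groups (exact permutation p = 0.9 for both). For c3a.1 the sign rests on metronidazole 1, where it stood 1.235 above the control mean, and without that array the value was -0.27. Without metronidazole 1, c3a.2 was at -1.45, c3a.3 at -0.71, c9 at -0.46 and c5 at -0.16.

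The other complement genes were described by role, from lists written with earlier results of these data known. Their counts of negative genes stand beside a share of 46.5% over all genes. Among enzymes of the alternative pathway, the loop that amplifies C3 cleavage, cfd stood out. It encodes factor D, the protease that cleaves factor B. Its log2 signals were 6.10, 6.55 and 7.14 in control and 4.94, 5.85 and 5.72 in metronidazole-treated larvae, which do not overlap, and its log2 fold change was -1.09 (SE 0.34, limma adjusted p = 0.952). The factor B-like gene cfbl was at -0.02 (SE 0.40), and the properdin gene cfp, whose product stabilizes the C3-cleaving enzyme, at 0.28 (SE 0.30).

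Of the other terminal components, which join the complex between C5 and C9, 5 of 6 listed genes were measured and 4 were negative. The chains of C8 had log2 fold changes of -0.73 (c8a, SE 0.51), -0.69 (c8b, SE 0.40) and -0.55 (c8g, SE 0.29), each with overlapping groups. The gene c7b differed from them, with log2 signals of 6.26, 5.05 and 5.00 in control and 9.47, 5.83 and 5.65 in metronidazole-treated larvae. Its log2 fold change of 1.55 (SE 1.02, adjusted p = 0.952) came mostly from metronidazole 1 and was 0.30 without it. Within replicates 1, 2 and 3 the differences of c7b were 3.21, 0.78 and 0.65. The gene c7a was at -0.11.

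The recognition molecules and early proteases of the classical and lectin routes had a median of -0.14 over 13 measured genes, 10 of them negative. The lectin gene mbl2, whose product binds sugars on microbes, was the exception, with log2 signals of 6.57, 6.34 and 6.05 in control and 5.11, 4.86 and 5.02 in metronidazole-treated larvae. The groups lay far apart and the arrays within each were close. The log2 fold change was -1.32 (SE 0.17, limma adjusted p = 0.808), the lowest p among the complement genes listed. Further log2 fold changes were -0.37 for the lectin gene hbl1, -0.33 for the lectin-associated protease gene masp1 and 0.25 for the protease gene c1s.1 (SE 0.14, 0.17 and 0.13), and 10 of the 13 had a mean below the median of all clusters.

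Of the regulators, 8 of 16 listed genes were measured, with a median of -0.32 and 7 negative. The gene cpb2, a carboxypeptidase that in mammals trims C3a and C5a, was at -1.16 (SE 0.45), serping1, the C1 inhibitor gene, at -0.68 (SE 0.31) and cfhl4, a factor H-like gene, at -0.48 (SE 0.21). Clusterin, clu, which holds terminal complexes in solution, was at 0.38 (SE 0.18). The receptor genes, which report on cells that respond to complement, were c3ar1 at 0.40 (SE 0.30; 0.052 without metronidazole 1), c5ar1 at -0.31 (SE 0.16) and itgb2, the shared chain of the leukocyte integrins, at -0.97 (SE 0.28). Only itgb2 of these 7 had no overlap between the groups, with 5.91, 6.21 and 6.84 in control against 5.12, 5.24 and 5.70. Their limma adjusted p was 0.952 in each case.

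**Figure D4:**
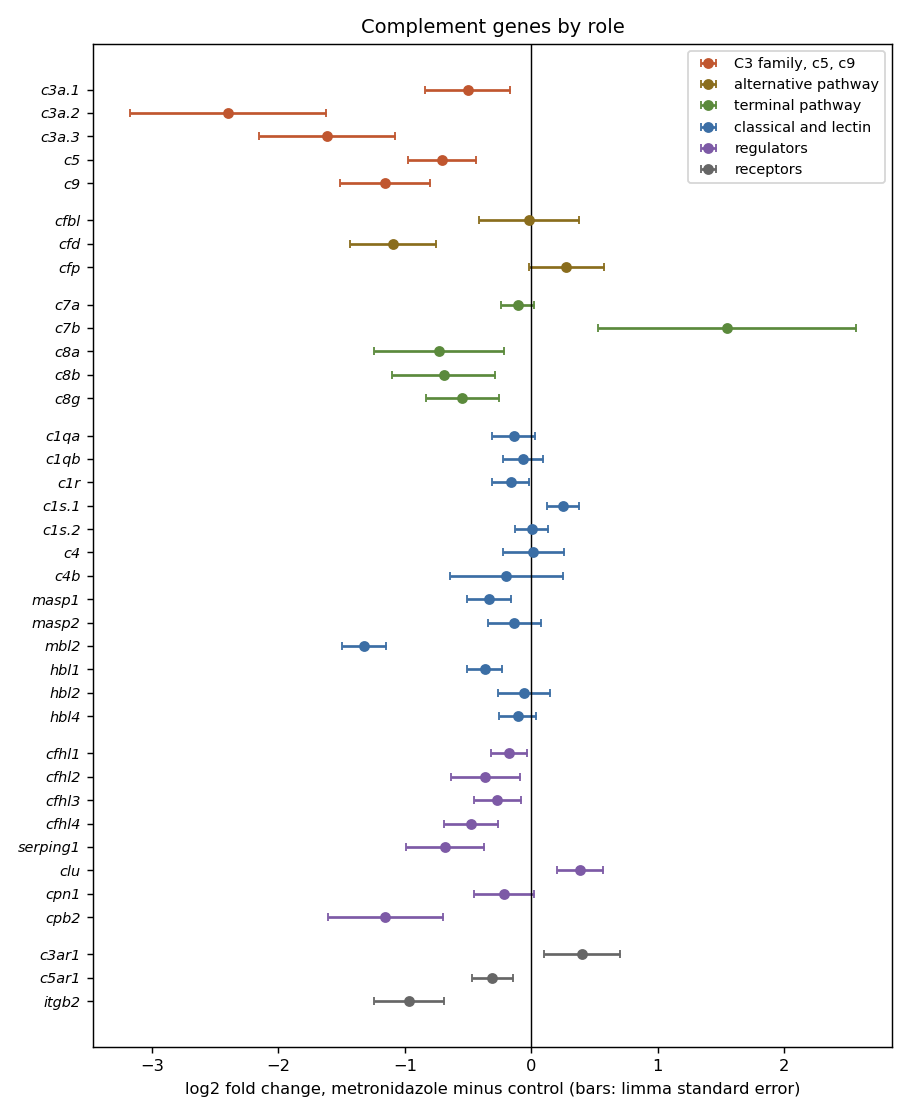
Log2 fold change, metronidazole minus control (horizontal axis), of the measured complement genes, ordered and coloured by role, with the limma SE as bars. The C3 paralogues c3a.2 and c3a.3 have the largest negative values, mbl2 has a short bar at -1.32, and c7b stands alone at 1.55. No gene passed the adjusted p.

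The genes whose signals ran most like the complement family were sought among 15541 genes above the median signal, by Pearson correlation over the 6 arrays with the mean profile of the 5 members, each centred on its own mean. As the profile carries the group difference and 6 arrays are few, the correlations are a description only. The closest gene was cfd (r = 0.999), the factor D gene of the alternative pathway. Next came p2rx4a, a receptor channel for ATP, and elmo1, a regulator of cell engulfment. The others were myo9b, twf1b, pigf, msh6, tspan13a, krtcap2 and ido1 (r = 0.991), an enzyme of tryptophan breakdown. Of these, ido1 had a log2 fold change of -1.09 and elmo1 of -0.19, so genes with a like pattern differed much in the size of their difference. The terminal genes c8b (r = 0.938) and c8g (r = 0.914) stood at places 234 and 423. Against the profile ran c7b (r = -0.83), the regulator clu (r = -0.85) and, outside complement, sox10 of the myelinating list (r = -0.966). Genes outside complement followed the profile more closely than c8b and c8g, among them f2 (r = 0.981, place 30), ahsg1 (r = 0.965, place 79) and itih2 (r = 0.954, place 136) of the liver list. So did evpla (r = 0.966, place 74) of the epidermal list and mpeg1.1 (r = 0.945, place 185) of the macrophage list, each the closest of its list. The lists were uneven. The correlation was lowest for cdh1 (r = 0.206) among the epidermal genes compared, with cldna at 0.5775. Among the macrophage genes compared it was lowest for csf1ra (r = 0.3195), with mpeg1.2 at 0.3753, and in the liver list for fga (r = 0.2883).

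The cytokine gene il1b, named after its values were seen, read 12.14 on metronidazole 1 against 6.33 and 7.34 on the other treated arrays and 6.78 to 7.78 in control. The centred median of the acute phase and cytokine list was -0.01 on that array and -0.10 to -0.02 in control, while its log2 summed signal was 12.91 there and 10.66 to 11.16 in control. On the same array c3a.1 and c7b were at their highest among the treated arrays, and c3a.2, c3a.3, c5 and c9 at their lowest. Of the markers of other cell types, none passed the adjusted p. The log2 fold change was negative for 6 of 6 measured macrophage genes, with a log2 summed signal of 10.68 to 11.23 in control and 9.93 to 10.35 in metronidazole-treated larvae, and for 3 of 6 neutrophil genes (9.38 to 9.51 and 8.92 to 12.03). It was negative for 6 of 6 enterocyte genes (11.86 to 12.03 and 10.21 to 11.37) and 6 of 6 epidermal genes (12.93 to 13.76 and 11.84 to 13.52). Of all genes, 46.5% were negative. These counts include genes that differed little: csf1ra (-0.01, SE 0.17) and havcr1 (-0.13, SE 0.21) of the macrophage list and cdh1 (-0.14, SE 0.35) of the epidermal list. Lower with no overlap were the macrophage genes mpeg1.1 (-1.40, SE 0.35) and cd68 (-0.92, SE 0.21). So were the enterocyte genes mep1ba (-2.60, SE 0.45), cdx1b (-0.66, SE 0.16) and dpp4 (-1.17, SE 0.17). The epidermal gene evpla (-0.85, SE 0.28) was as well, against 5.73% of all genes. The list medians were -0.86 (macrophage), 0.13 (neutrophil), -1.23 (enterocyte) and -0.75 (epidermal). The summed signals of the neutrophil and epidermal lists thus overlapped between the groups, and those of the macrophage and enterocyte lists did not. Without metronidazole 1, 4 of 6 genes were negative in each of the macrophage, neutrophil and epidermal lists, and 6 of 6 enterocyte genes. The macrophage markers marco and mfap4 are not analysed here, and havcr1 was the only measured gene of these 4 lists with a mean below the median of all clusters. Their part in the complement results was not tested. Of 5 measured genes listed for myelinating cells, 2 were negative, with a median of 0.03. The log2 summed signal of this list was 10.21 to 10.27 in control and 10.18 to 10.35 in metronidazole-treated larvae, which overlapped. A loss of these cells was not tested. The myelin genes mbpa and mbpb, made by the targeted cells, had log2 fold changes of -0.14 and 0.03 (SE 0.16 and 0.13). The others were mag at 0.29 (SE 0.13), higher with no overlap of the groups, sox10 at 0.25 (SE 0.135) and olig2 at -0.31 (SE 0.17).

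Leaving out metronidazole 1 or control 3 left all 5 members negative. Without metronidazole 1 the median was -0.81, and c3a.1, c3a.3, c5 and c9 were lower with no overlap, as were 9.72% of all genes on these 5 arrays. Without control 3 it was -0.90, with c3a.3, c5 and c9 lower with no overlap, against 8.41% of all genes.

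Of the genes that RefSeq places beside the c3a genes, 2 were measured, and both differed less than c3a.2 and c3a.3. The gene crb3b, next to c3a.1, had a log2 fold change of -0.16 (SE 0.34). The gene zgc:65894, within whose span c3a.2 and c3a.3 lie, was at -0.14 (SE 0.16), with overlapping groups. The difference between these neighbours and the c3a genes was not tested.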

How the data were processed

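The data were 6 arrays of whole zebrafish larvae, 3 control and 3 metronidazole-treated. The authors deposited log2 signals, 1 per transcript cluster and array, already summarized and brought to nearly the same scale: the array medians lay between 5.10 and 5.14. The labels name MAS5 without its role. Normalization and background correction are not given in the sources used here, and detection values were not analysed here. Symbols were read from the platform annotation, in which 20806 clusters carry 1 symbol, 855 several and 53551 none. Of the 20806, 20323 matched a RefSeq gene by Entrez ID. No sequences or genome positions are printed.

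The groups were compared over all 75212 clusters with the lmFit and eBayes functions of limma (version 3.58.1, run under R 4.3.3), by two-sided tests with Benjamini-Hochberg adjustment and a threshold of 0.05. Tables and plots used Python 3.11.15, pandas 2.3.3, scipy 1.17.1 and matplotlib 3.10.9. The fit was tried on simulated arrays with known shifts, and only the mean shift was required to be recovered. How many such shifts 3 arrays against 3 can call is not reported here. Members and lists were chosen with earlier results of these data known. Named genes were all members, up to 4 genes per list with the lowest p, and the 10 genes most like the members. Alternatives were other scalings, filters, variance models, the methods' t-test, a replicate block and leaving out each array. Deviations from the group means correlated at 0.241, 0.148 and 0.127 between same-numbered arrays, against -0.171 to 0.0506 for other pairs. The methods describe 3 batches, so the numbers were taken as pairs in the replicate block and in the differences within replicates. The main limma fit had no batch term, so its standard errors, intervals and p-values are unpaired. The p-values measure the spread between these arrays, whose number limits the precision.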

Additional observations from a re-analysis of the deposited data

How the results depend on the processing

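All 5 members stayed negative, and limma or the methods' t-test called 0 clusters at the adjusted p, in each of the 15 planned settings that changed the scaling, the filter, the test or the arrays used. The median of the members ranged from -1.17 to -0.95 over the settings with all arrays, and from -1.40 to -0.81 with each array left out. The count of members lower with no overlap was 3 or 4 in all of them. Of the 19260 genes, 1103 were lower with no overlap on all arrays. With 1 array left out this is easier to meet, and 1472 (without control 2) to 3126 (without control 1) of them were. With the replicate block the log2 fold changes were the same, the standard error of c3a.2 was 0.18 and its adjusted p = 0.445, and the block changed no call. For c3a.1, c3a.3, c5 and c9 the standard errors were then 0.33, 0.30, 0.23 and 0.29. Their limma adjusted p with the block was 0.8245, 0.4941, 0.6552 and 0.561. Over the settings the adjusted p of the members ranged from 0.401 to 1. Relative to the liver list, an alternative chosen after seeing the data, c3a.1 went to 0.23 and c5 to 0.025. Neither sign held without metronidazole 1, where they were -0.27 and -0.16. With each array left out c3a.1 ranged from -0.74 to -0.12, c3a.2 from -3.16 to -1.80, c3a.3 from -1.91 to -1.06, c5 from -0.89 to -0.49 and c9 from -1.40 to -0.81. The median of the 3 alternative pathway enzymes was -0.45 without control 1 and 0.35 without control 3. With only the clusters above the median signal, the medians were -0.33 for the classical and lectin genes, -0.48 for the regulators and -0.64 for the receptors. The classical and lectin median was -0.065 without control 3. The signal over background is unknown, which limits what can be said of c3a.2 in treated larvae.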

Other observations

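The liver transcription factors, which switch on the genes of secreted liver proteins, had a median of -0.03 over 8 measured genes, 4 of them negative. Without metronidazole 1 the median was -0.24, with 6 of 8 negative. The 4 that were lower with no overlap between the groups on all arrays were hnf4a, foxa2, foxa3 and nr1h4, against 5.73% of all genes. Of these, foxa2 differed little, with a log2 fold change of -0.13 (SE 0.12). The gene hnf4a, a nuclear receptor of liver and gut, had log2 signals of 7.36, 6.95 and 6.82 in control and 5.43, 6.59 and 6.46 in metronidazole-treated larvae, with -0.88 as the log2 fold change (SE 0.33). The gene foxa3 was at -0.54 (SE 0.19) and nr1h4, the bile acid receptor gene, at -0.36 (SE 0.16). In contrast, onecut1 was at 0.38 (SE 0.17). The lowest limma adjusted p of this list was 0.952.

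Acute phase genes, which the liver makes in inflammation, and the cytokines that induce them had a median of 0.21 over 15 measured genes, 6 of them negative. This direction rests on metronidazole 1: without it the median was -0.15 and 11 of 15 were negative. The gene leap2, a liver antimicrobial peptide, had log2 signals of 5.77, 5.26 and 5.79 in control and 4.16, 4.72 and 4.32 in metronidazole-treated larvae, with no overlap and -1.21 as the log2 fold change (SE 0.22, limma adjusted p = 0.952). The gene crp was at -0.60 (SE 0.19), il6r at -0.32 (SE 0.15) and saa, serum amyloid A, at 0.58 (SE 0.32), with metronidazole 1 highest at 6.35, and at 0.19 without that array. The genes crp1, crp2, crp3 and crp4 were at 0.21, 0.14, -0.81 and -0.12, each with overlapping groups. The signals of crp on all arrays, and of leap2 in treated larvae, lay below the median of all clusters.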
